A study of Mus musculus with 9 samples.

Results

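Culture of murine CD8+ T cells in IL-15 was compared with culture in no cytokine on 3 two-colour oligonucleotide arrays, out of 9 arrays in all. The 3 arrays were taken by their titles, which name IL-15 culture for 4 days and number the biological replicates 1 to 3. Each array carried RNA of cells kept for 4 days with 10 ng/ml IL-15 and then restimulated for 4 h without cytokine, against RNA of cells kept for 4 days without cytokine and restimulated the same way. The restimulation was thus common to both channels, and the labels give no strain, age, sex or stimulating agent. The other 6 arrays held IL-2 or IL-21 in place of IL-15, 3 arrays each, at the same dose and times. The sources used here do not say whether the 3 cytokines of a replicate were set against the same untreated RNA, so the comparisons may share controls.

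IL-15 is a cytokine of the common gamma chain family that supports the survival and division of memory CD8+ T cells and NK cells. It shares the IL-2 receptor beta chain and the common gamma chain with IL-2, and is usually held on the surface of another cell by IL-15 receptor alpha. Its receptor signals through JAK1, JAK3 and mainly STAT5, whereas IL-21 signals mainly through STAT3. Type I interferon acts through a receptor of its own and induces antiviral genes, many of which carry an interferon-response element in their promoters.

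A ratio is given as log2 of IL-15 over no cytokine, for each gene, with the error of a mean as the standard error (SE) of the limma fit over all 9 arrays and n = 3. A gene was called where its limma p was under 0.05 after Benjamini-Hochberg adjustment across the 17498 genes. Ratios carry no level, so whether a gene was expressed at all, and whether a probe was dim, cannot be read from them. The 3 arrays disagreed over most probes: replicates 1 and 2 correlated at 0.02, replicates 1 and 3 at -0.09 and replicates 2 and 3 at 0.17. Per the series text, replicate 1 alone carried the cytokine RNA in Cy5 and replicates 2 and 3 carried it in Cy3, so replicate 1 and its dye orientation cannot be told apart. It also had 4.58% of probes below -1 and 1.89% above 1, whereas replicates 2 and 3 had 0.651% and 0.865% below -1 and 3.65% and 3.25% above 1. The direction, cytokine over untreated, was assumed and is not settled by the sources.

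With IL-15, 22 genes were called higher, 0.126% of all genes, and none lower (0.0%). At an unadjusted p under 0.05, 893 genes (5.1%) were higher and 376 (2.15%) lower. With the replicate number as a block, limma called 109 genes higher (0.623%) and 13 lower (0.0743%), the 22 among them. With the replicate number as a random effect instead, at an estimated correlation of 0.432, it called 29 higher (0.166%) and 0 lower (0.0%). Of 43 genes in the lists that the block added, 4 (Ccl1, H2ac13, H2ac22 and H2bc11) passed with the random effect and 39 did not. A simple count of genes with a ratio past 0.58, a 1.49-fold change, on one side in all 3 arrays gave 142 higher (0.812%) and 17 lower (0.0972%). Leaving out any replicate number from all 3 cytokines took the called genes to 0. Quantile normalization kept 10 of the 22, namely the 5 interferon-stimulated genes, Mlkl, Ifitm3, Cenpi, H2bc22 and H2bc7, and ended the call of the other 12. These were 5 histone genes, H2az1, S100a4, S100a6, Plac8, Scn9a, Mitd1 and Selenoh. The 22 genes rested on a single probe each, with the exception of Phf11a, whose probes gave 1.14 and 1.75.

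**Figure D1:**
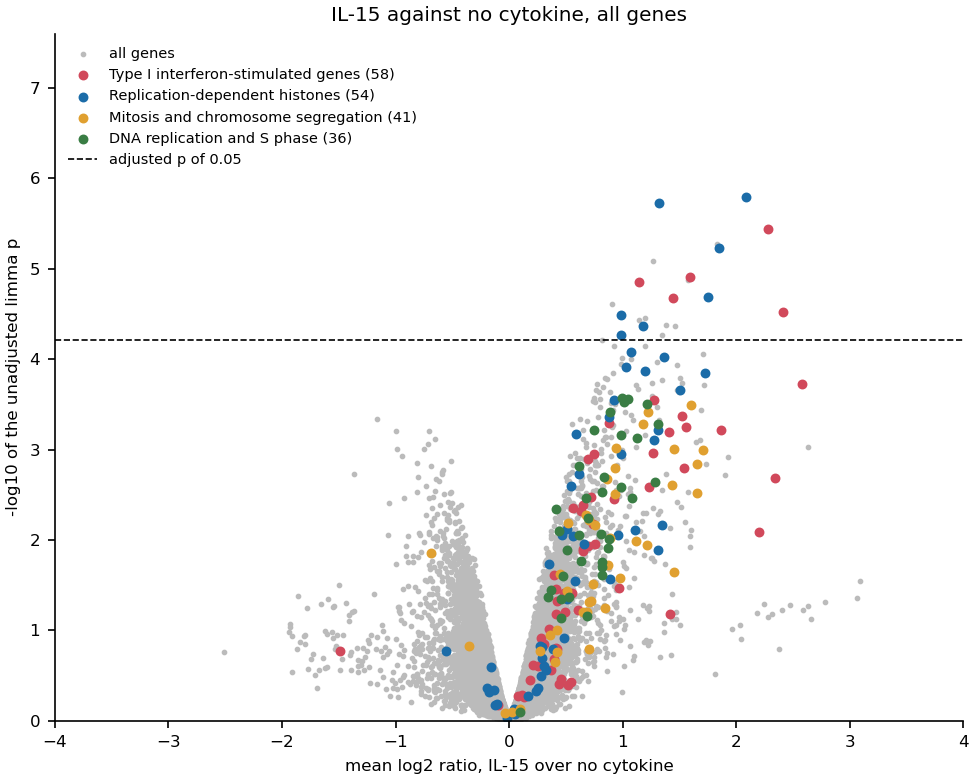
Mean log2 ratio of IL-15 over no cytokine (x axis) against -log10 of the unadjusted limma p (y axis) for 17498 genes, with the interferon-stimulated, histone, S phase and mitosis lists in colour and the adjusted p of 0.05 as a dashed line. All 22 genes above the line lie to the right of 0.

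Interferon-stimulated genes and histone genes made up 12 of the 22. Of 58 measured type I interferon-stimulated genes, 5 rose (Usp18, Isg15, Isg20, Phf11a and Bst2) and none fell, against 0.126% of all genes that rose. Of 54 measured replication-dependent histone genes, 7 rose and none fell. The remaining called genes were Ifitm3, a membrane protein that blocks virus entry, Mlkl, the executor of necroptosis, Plac8, a small cysteine-rich protein, the calcium-binding proteins S100a4 and S100a6, H2az1, a histone variant made outside S phase as well, Cenpi, a centromere protein, Mitd1, which acts in cytokinesis, Selenoh, a nucleolar selenoprotein, and Scn9a, a voltage-gated sodium channel. In 10 of the 22 genes replicate 1 was highest, in 10 replicate 2 and in 2 replicate 3.

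**Figure D2:**
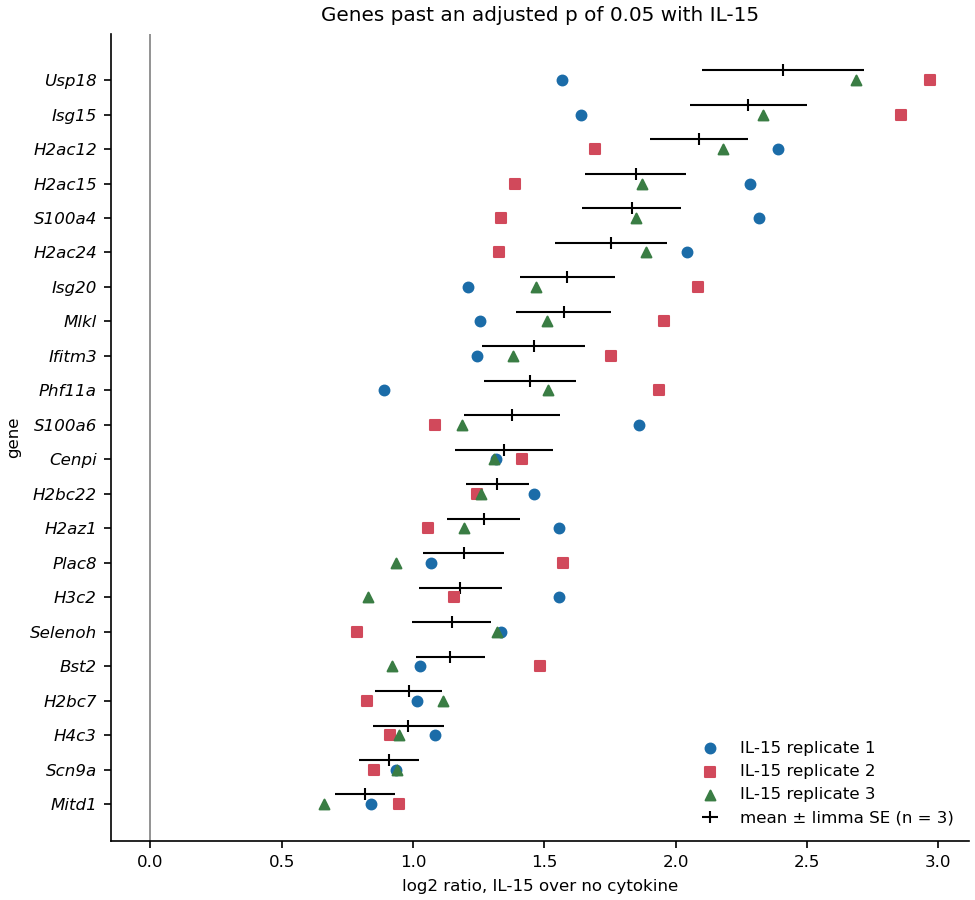
Log2 ratio of IL-15 over no cytokine (x axis) in each of the 3 arrays, as symbols, for the 22 called genes, with the mean and its limma SE as a black bar above them. Every symbol lies above 0.58, and Usp18 has the highest mean at 2.41 while Mitd1 has the lowest at 0.82.

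Promoters of 3 called interferon-stimulated genes, and of Ifitm3 from outside that list, are shown first. They were shown because they hold the interferon-response motif, and the called list member Isg20, without a match, is not shown. The called gene Mitd1, also from outside the list, held 1 match, at -237, and is not shown either. The window runs from 250 bases before to 50 after the RefSeq transcription start on GRCm38.p6, 5′ to 3′ on the gene's strand, and capitals mark matches to GAAA, any 2 bases and a second GAAA, searched on both strands, with overlapping matches merged. Isg15 lies at chr4:156200769-156201068, Bst2 at chr8:71537423-71537722, Phf11a at chr14:59297473-59297772 and Ifitm3 at chr7:141010695-141010994, all on the minus strand.
Isg15: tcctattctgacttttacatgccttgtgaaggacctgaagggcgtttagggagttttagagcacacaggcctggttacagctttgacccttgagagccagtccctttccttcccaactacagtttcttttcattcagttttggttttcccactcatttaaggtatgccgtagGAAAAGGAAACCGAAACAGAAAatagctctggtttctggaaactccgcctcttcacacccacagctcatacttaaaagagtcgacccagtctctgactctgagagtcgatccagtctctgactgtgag
Bst2: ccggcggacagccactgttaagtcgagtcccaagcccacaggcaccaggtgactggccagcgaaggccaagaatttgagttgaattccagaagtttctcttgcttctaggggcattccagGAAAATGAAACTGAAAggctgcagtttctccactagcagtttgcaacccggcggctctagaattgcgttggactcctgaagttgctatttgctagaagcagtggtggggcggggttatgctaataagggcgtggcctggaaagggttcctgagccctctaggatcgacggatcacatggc
Phf11a: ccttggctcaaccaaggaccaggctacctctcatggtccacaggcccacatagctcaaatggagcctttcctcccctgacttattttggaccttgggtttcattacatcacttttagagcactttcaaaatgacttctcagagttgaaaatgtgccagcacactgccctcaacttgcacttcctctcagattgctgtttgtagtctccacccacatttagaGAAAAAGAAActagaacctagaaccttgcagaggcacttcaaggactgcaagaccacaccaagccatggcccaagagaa
Ifitm3: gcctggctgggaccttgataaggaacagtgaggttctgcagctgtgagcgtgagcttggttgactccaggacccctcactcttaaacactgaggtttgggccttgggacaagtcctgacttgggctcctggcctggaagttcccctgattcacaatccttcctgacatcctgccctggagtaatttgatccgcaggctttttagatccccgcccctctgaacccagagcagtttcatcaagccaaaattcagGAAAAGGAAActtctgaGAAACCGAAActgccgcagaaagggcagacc
In Isg15, 3 overlapping matches began at -78, -72 and -66 bases from the start, and in Bst2 2 overlapping matches began at -130 and -124. Phf11a held 1 match, at -29, and the 2 matches of Ifitm3 lay after its start. A match was found in 3.99% of 27025 promoters, in 3.96% of the 13883 measured genes with a promoter in the table, and in 19 of 45 interferon-stimulated genes with one (42.2%). Of the 4 called genes of the list with a promoter in the table, 3 held a match and Isg20 held none. Among all called genes, 5 of the 21 with a promoter in the table held a match (23.8%), Ifitm3 and Mitd1 among them. Usp18 was not in the table used. The motif was found in 1 of 50 histone promoters.

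Usp18, a protease that removes ISG15 from proteins and restrains interferon receptor signalling, had ratios of 1.57, 2.97 and 2.69 in replicates 1 to 3. Isg15, the ubiquitin-like protein that USP18 removes, had 1.64, 2.86 and 2.33. Replicate 1 was lowest and replicate 2 highest for both, and no array was near 0. The means were 2.41 ± 0.31, or 5.31-fold, for Usp18 (limma adjusted p = 0.0395) and 2.28 ± 0.22, or 4.85-fold, for Isg15 (limma adjusted p = 0.0206).

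Isg20, an RNA exonuclease, had ratios of 1.21, 2.09 and 1.47, with a mean of 1.59 ± 0.18 (limma adjusted p = 0.027). Phf11a, a PHD finger gene, had 0.89, 1.94 and 1.51, with a mean of 1.45 ± 0.18 (limma adjusted p = 0.0333). Bst2, or tetherin, which holds budding virus at the cell surface, had 1.03, 1.48 and 0.92, with a mean of 1.14 ± 0.13 (limma adjusted p = 0.027). Replicate 2 was again highest in all 3 genes, whereas the lowest was replicate 1 for Isg20 and Phf11a and replicate 3 for Bst2.

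The interferon-stimulated list as a whole lay above 0 more often than genes in general. Its median ratio was 0.64, against 0.00 over all genes, and 40 of 58 genes were above 0 in all 3 arrays, compared with 15.1% of all genes. Past 0.58 in all 3 arrays were 13 genes, compared with 0.812% of all genes. At an unadjusted p under 0.05, 35 were higher, compared with 5.1% of all genes. The list was chosen with earlier results of these data known. Its median was 0.24 in replicate 1, 1.10 in replicate 2 and 0.69 in replicate 3, and replicate 2 gave the highest ratio for 42 of the 58 genes, compared with 6011 of 17498 genes overall. With the sign of replicates 2 and 3 turned, the other reading of the dyes, the list's median was -0.51 and none of its genes was above 0 in all 3 arrays.

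The 8 genes past 0.58 in all 3 arrays that did not pass the test are named here after their values were seen. They were Ifit1, Ifit2 and Ifit3, which bind foreign RNA or the proteins that translate it, Ifih1, the cytosolic RNA sensor MDA5, Eif2ak2, the kinase PKR, Cmpk2, a nucleotide kinase, Daxx, a nuclear chaperone, and Lgals3bp, a secreted glycoprotein. Ifit3 had ratios of 1.14, 3.82 and 2.78 and the highest mean of the list, 2.58 ± 0.42 (limma adjusted p = 0.0738). Cmpk2 had 0.66, 4.12 and 2.24, with a mean of 2.34 ± 0.54 (limma adjusted p = 0.199). Ifih1 had 0.62, 2.76 and 2.23, with a mean of 1.87 ± 0.36 (limma adjusted p = 0.111). The gap between replicates 1 and 2 was wider than the mean itself in these 3 genes, and the low array was replicate 1 in all 8. Irf7, the factor that amplifies interferon production, had 0.39, 1.23 and 1.01, with a mean of 0.88 ± 0.16 (limma adjusted p = 0.104).

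A few members rested on a single array. The fixed gene Socs1, a feedback inhibitor of cytokine signalling, had 0.07, 4.45 and -0.10, and its 2 probes averaged 0.45 and 2.50. Slfn8, the lowest gene of the interferon list, had -4.98, 0.34 and 0.17, and Ifi44l had -0.13, 0.21 and 4.16, both named after their values were seen. None of the 3 was called.

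**Figure D3:**
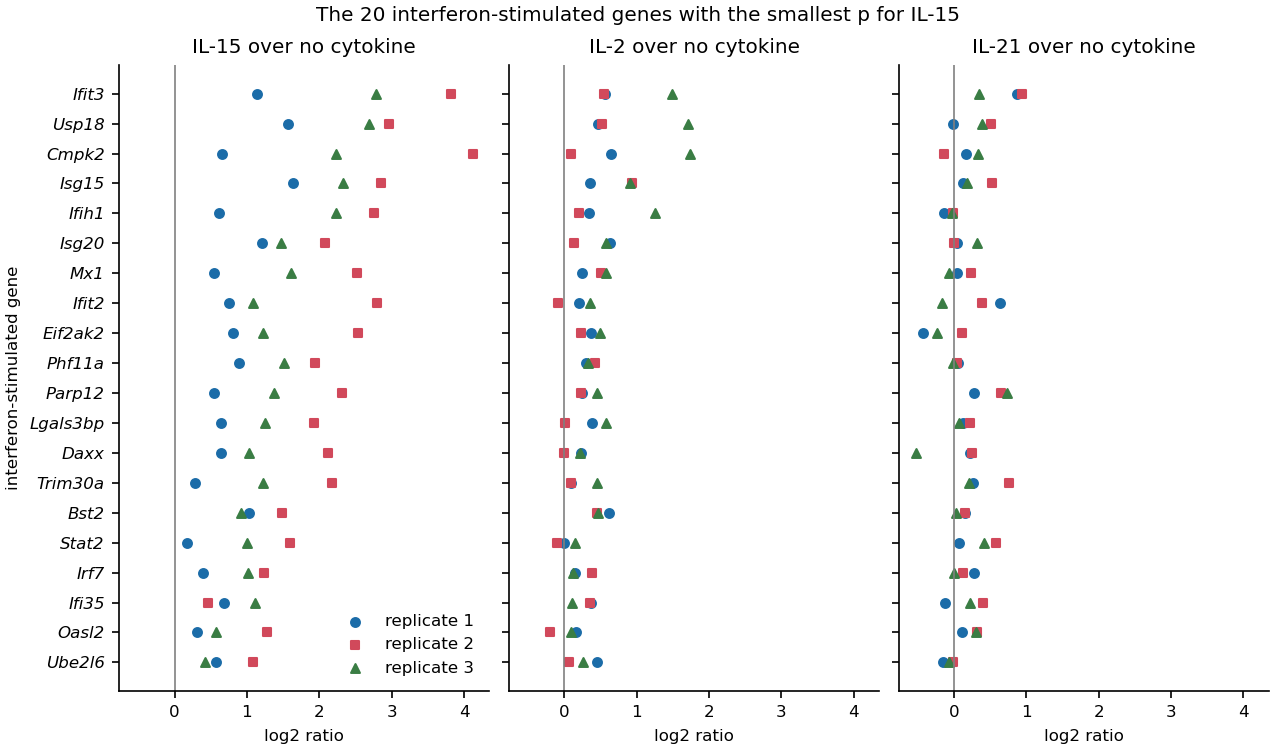
Log2 ratio over no cytokine (x axes) with IL-15, IL-2 and IL-21 (panels) in each replicate (symbols) for the 20 interferon-stimulated genes with the smallest IL-15 p, a choice made on the IL-15 values. With IL-15 the red squares of replicate 2 lie farthest right in most genes, as for Isg15 at 2.86, while with IL-2 Isg15 reached 0.94 and with IL-21 0.53.

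Genes that make or sense interferon lay near 0 in the median. Of 20 measured interferons, receptors and proximal signalling genes, none was called and the median was -0.09. Above 0 in all 3 arrays was 1, compared with 15.1% of all genes. Ifnb1, which encodes interferon beta, had -2.19, -0.60 and 0.46. Ifng, which encodes interferon gamma, had 0.76, 0.22 and -0.23. Among 17 genes induced mainly by interferon gamma none was called and the median was 0.17. Cxcl10, a chemokine for CXCR3, was its only member past 0.58 in all 3 arrays, with 0.72, 3.12 and 1.93 and a mean of 1.93 ± 0.41 (limma adjusted p = 0.155). Of 18 MHC class I presentation genes, none was called, and Psmb8, an immunoproteasome subunit, passed with the replicate block (0.69 ± 0.15, limma adjusted p = 0.165, 0.0492 with the replicate block and 0.153 with the random effect).

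Ifitm3 was the only called gene of 7 in the IFITM family, with 1.24, 1.75 and 1.38 and a mean of 1.46 ± 0.20 (limma adjusted p = 0.0395). Its close relatives Ifitm1 and Ifitm2 had means of 0.37 ± 0.20 and 0.44 ± 0.22. With IL-2 the Ifitm3 ratio was 1.69, 2.15 and 2.67. The difference of IL-15 minus IL-2 was -0.71 (95% interval -1.34 to -0.08, unadjusted), opposite in sign to that of Isg15.

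Set beside IL-2, the 5 interferon-stimulated genes had the highest differences of IL-15 minus IL-2 among the 22 called genes. With IL-2, Usp18 had 0.47, 0.52 and 1.71 and Isg15 had 0.36, 0.94 and 0.91. The difference of IL-15 minus IL-2 was 1.51 for Usp18 (95% interval 0.52 to 2.50) and 1.54 for Isg15 (0.82 to 2.26). It was 1.14 for Isg20 (0.55 to 1.72) and 1.10 for Phf11a (0.53 to 1.67). These intervals are not adjusted for the number of genes, and the called genes were picked on the IL-15 values that enter them. Across all genes, limma called 0 differences between IL-15 and IL-2 in either direction (0.0%), with or without the replicate block. At an unadjusted p under 0.05, 87 genes (0.497%) were higher with IL-15 and 165 (0.943%) lower, and with the block 260 (1.49%) and 571 (3.26%). In the interferon list 21 of 58 were higher and none lower at that unadjusted level, and the list's median difference was 0.54, against -0.04 over all genes.

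Among all genes, those with the smallest p for a higher ratio with IL-15 than with IL-2 were Isg15, Sp110, Isg20, Phf11a and Nampt. Sp110, a nuclear body protein, differed by 0.87 (95% interval 0.43 to 1.31), and Nampt, which makes a precursor of NAD, by 1.09 (0.53 to 1.66). Those with the smallest p in the other direction were Capn2, Acad11, Trpv2, Emilin2 and Icos. Capn2, a calcium-dependent protease, had 0.63, 0.48 and 0.40 with IL-15 and 1.25, 1.81 and 2.13 with IL-2, a difference of -1.23 (-1.79 to -0.66). Icos, a costimulatory receptor, had 0.66, 0.23 and 0.11 with IL-15 and 1.00, 1.27 and 1.84 with IL-2, a difference of -1.04 (-1.64 to -0.43). Both genes were picked on this difference, so the lack of overlap between their IL-15 and IL-2 arrays adds nothing to the test. Their adjusted p in the limma fit was 1.00.

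The histone genes formed the other large group. Histones that package new DNA are made almost only in S phase, from clustered genes whose mRNAs end in a stem-loop and carry no poly(A) tail in normal dividing cells. H2ac12, which encodes a histone H2A, had the smallest p of any gene, and its promoter is shown because an octamer ATTTGCAT (searched on both strands) is the best known motif of histone H2B promoters. It lies at chr13:22035594-22035893 on the minus strand, over the same window and build as above, and capitals mark the octamer, read here on the opposite strand, from -155.
H2ac12: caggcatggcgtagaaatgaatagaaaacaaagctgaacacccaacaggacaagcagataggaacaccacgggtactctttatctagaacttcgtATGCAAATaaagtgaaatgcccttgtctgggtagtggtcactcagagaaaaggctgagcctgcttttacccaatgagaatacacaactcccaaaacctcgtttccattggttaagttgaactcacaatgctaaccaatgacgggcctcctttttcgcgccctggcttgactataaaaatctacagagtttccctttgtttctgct
The octamer was found in 12 of 50 histone promoters (24.0%), in 6 of 14 for H2A and 6 of 12 for H2B, compared with 1.97% of 27025 promoters. Of the 7 called histone genes, H2ac12 alone held it.

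H2ac12 had ratios of 2.39, 1.69 and 2.18, with a mean of 2.09 ± 0.19, or 4.25-fold (limma adjusted p = 0.0163). H2ac15 had 2.28, 1.39 and 1.87, with a mean of 1.85 ± 0.19 (limma adjusted p = 0.0206). H2ac24 had 2.05, 1.33 and 1.89, with a mean of 1.75 ± 0.21 (limma adjusted p = 0.0333). All 3 are H2A genes, and in each replicate 1 was highest and replicate 2 lowest. The H2B genes H2bc22 (1.46, 1.24 and 1.26) and H2bc7 (1.01, 0.82 and 1.11) rose with means of 1.32 ± 0.12 and 0.98 ± 0.13. The H3 gene H3c2 (1.56, 1.16 and 0.83) and the H4 gene H4c3 (1.09, 0.91 and 0.95) rose with means of 1.18 ± 0.16 and 0.98 ± 0.14. Sequences within a histone class are near identical, so a probe may bind RNA of several members and the count of 7 may hold fewer separate signals. Quantile normalization ended the call of H2ac12 (limma adjusted p = 0.0893), H2ac15 (0.192), H2ac24 (0.128), H3c2 (0.237) and H4c3 (0.0616).

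By class, the median ratio was 1.30 over 14 H2A genes, 0.59 over 13 H2B, 0.62 over 11 H4, 0.35 over 11 H3 and 0.17 over 5 H1 genes. Past 0.58 in all 3 arrays were 20 of the 54 genes, 9 of them H2A, compared with 0.812% of all genes. No H1 gene was among them, but 5 are too few to read this as a result. With the replicate block 17 histone genes were called, where 0.623% of all genes were, and with the random effect 10, where 0.166% were. With the sign of replicates 2 and 3 turned the histone median went from 0.57 to -0.15. A bulk ratio cannot tell a larger share of cells in S phase from more histone RNA per cell. The RNA was amplified, and how far that step took in RNA without a poly(A) tail was not tested. H2az1, the variant outside this list, had 1.56, 1.06 and 1.19, with a mean of 1.27 ± 0.14 (limma adjusted p = 0.0237, and 0.0823 after quantile normalization).

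**Figure D4:**
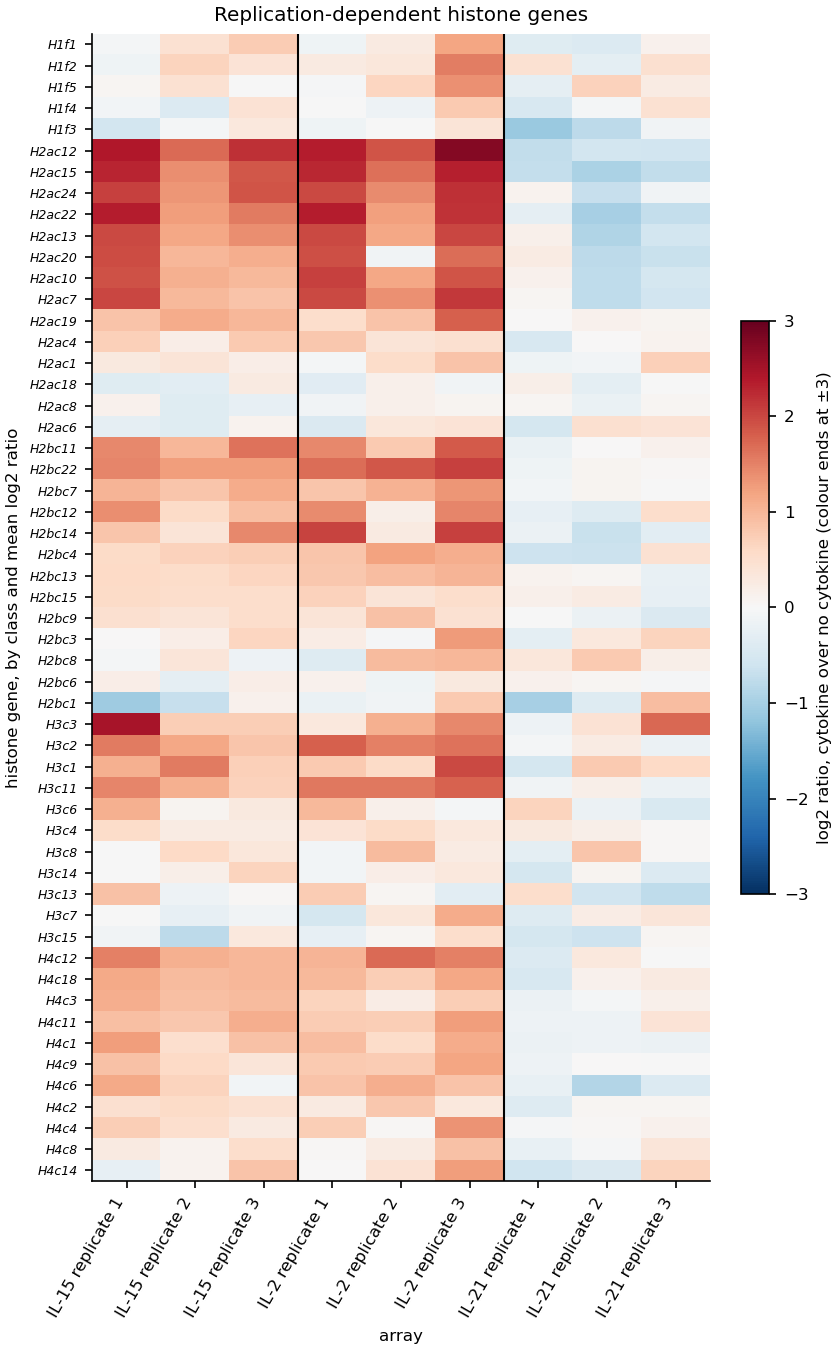
Log2 ratio over no cytokine (colour, ending at ±3) of 54 replication-dependent histone genes (rows, by class and IL-15 mean) in the 9 arrays (columns, IL-15, IL-2 and IL-21). The H2A genes at the top of their block are red in every IL-15 and most IL-2 arrays and blue or pale with IL-21, as for H2ac12 at 2.39, 1.69 and 2.18 with IL-15 and -0.73, -0.56 and -0.57 with IL-21.

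H2ac12 and H2ac15 were also 2 of the 3 genes called between IL-15 and IL-21, where 3 genes were higher with IL-15 (0.0171%) and 0 lower (0.0%). At an unadjusted p under 0.05, 631 (3.61%) were higher and 362 (2.07%) lower, and with the replicate block limma called 28 (0.16%) and 4 (0.0229%), with the random effect 108 (0.617%) and 19 (0.109%). H2ac12 differed by 2.71 (95% interval 2.11 to 3.30) and H2ac15 by 2.65 (2.03 to 3.27), both with a limma adjusted p of 0.0399. H2ac15 had 2.28, 1.39 and 1.87 with IL-15 and -0.71, -0.96 and -0.73 with IL-21. With IL-2 it had 2.26, 1.65 and 2.34, and the difference of IL-15 minus IL-2 was -0.24 (-0.86 to 0.38). Leaving out any replicate took the calls between IL-15 and IL-21 to 0. Quantile normalization ended the calls of H2ac12, H2ac15 and Lta (limma adjusted p = 0.414, 0.424 and 0.279).

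Lta, which encodes lymphotoxin alpha, a secreted relative of TNF, was the third such gene. It had 0.75, 0.76 and 0.44 with IL-15, 0.81, 0.74 and 0.67 with IL-2 and -1.26, -0.81 and -1.17 with IL-21. All 3 IL-21 arrays were below 0 and all IL-15 arrays above it. Lta was picked on the difference between IL-15 and IL-21, so this separation adds nothing to the test. The difference of IL-15 minus IL-21 was 1.73 (95% interval 1.31 to 2.14, limma adjusted p = 0.0399), while Lta was not called with IL-15 against no cytokine (0.65 ± 0.13, limma adjusted p = 0.122). The higher ratios with IL-15 of the next smallest p belonged to Scn9a, by 1.34 (limma adjusted p = 0.0596, 0.0313 with the replicate block and 0.00729 with the random effect), and H2bc22, by 1.32 (limma adjusted p = 0.0873).

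On the other side, the 5 genes with the smallest p for a lower ratio with IL-15 than with IL-21 were Satb1, Casp6, Jchain, Cxcr6 and Tcp11l2. Satb1, a chromatin organiser of T cell development, had -0.59, -0.11 and -0.16 with IL-15 and 1.23, 1.65 and 1.37 with IL-21. Its difference was -1.70 (95% interval -2.14 to -1.27, limma adjusted p = 0.0508, 0.0264 with the replicate block and 0.00638 with the random effect). Jchain, which joins IgM and IgA units in plasma cells, had ratios between -1.60 and -0.89 with IL-15 and between 0.98 and 1.21 with IL-21, and differed by -2.23 (limma adjusted p = 0.107, 0.041 with the replicate block and 0.00901 with the random effect). Both genes were picked on this difference, so the lack of overlap between the arrays of the 2 cytokines adds nothing to the test. Casp6, an executioner caspase, differed by -1.30 (limma adjusted p = 0.0969, 0.0329 with the replicate block and 0.00773 with the random effect).

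Genes of DNA replication and of mitosis had high list medians, without a called member. Of 36 measured S phase genes 34 were above 0 in all 3 arrays, compared with 15.1% of all genes, and the median was 0.81. Past 0.58 in all 3 were 11, compared with 0.812%. None passed the limma test, and 33 were higher at an unadjusted p under 0.05, compared with 5.1% of all genes. With the replicate block 10 were called, where 0.623% of all genes were, but 0 with the random effect. Rrm1, the large subunit of ribonucleotide reductase, had 1.72, 0.70 and 1.21, with a mean of 1.21 ± 0.21 (limma adjusted p = 0.0818, 0.0344 with the replicate block and 0.1 with the random effect). Lig1, the ligase that joins Okazaki fragments, had 1.47, 0.69 and 0.99, with a mean of 1.05 ± 0.18 (limma adjusted p = 0.0807, 0.0301 with the replicate block and 0.0842 with the random effect). Cdt1, which loads the replicative helicase, had 1.25, 0.89 and 0.86, with a mean of 1.00 ± 0.17 (limma adjusted p = 0.0807, 0.0301 with the replicate block and 0.0842 with the random effect). Replicate 1 was highest for 30 of the 36 genes, compared with 5472 of 17498 overall. With the sign of replicates 2 and 3 turned, the medians were 0.01 over the S phase genes and 0.10 over the mitosis genes, and 1 gene of each list was above 0 in all 3 arrays.

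Of 41 mitosis genes, 31 were above 0 in all 3 arrays, compared with 15.1% of all genes. Past 0.58 were 9, compared with 0.812%, and the median was 0.74. None passed the test, 8 were called with the block, where 0.623% of all genes were, and 0 with the random effect. Ube2c, which ubiquitinates mitotic cyclins with the anaphase-promoting complex, had 2.48, 0.99 and 1.34, with a mean of 1.60 ± 0.28 (limma adjusted p = 0.0832, 0.0206 with the replicate block and 0.0707 with the random effect). Birc5, or survivin, had 1.93, 0.85 and 0.87, with a mean of 1.22 ± 0.22 (limma adjusted p = 0.0906, 0.0359 with the replicate block and 0.102 with the random effect). The list median was 1.36 in replicate 1 and 0.52 in both other replicates, the reverse of the order seen in the interferon list. Mki67, the fixed proliferation marker, had 0.34, -0.16 and 1.03 and was not called.

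The list medians with the other cytokines were 0.95 for S phase and 1.11 for mitosis with IL-2 and -0.16 and -0.31 with IL-21. The median difference of IL-15 minus IL-21 was 0.89 over the S phase genes and 1.06 over the mitosis genes, against 0.00 over all genes. The block called 2 and 3 of them higher with IL-15, where 0.16% of all genes were. Against IL-2 the median differences were -0.19 and -0.28. At an unadjusted p under 0.05, 2 genes of each list were lower with IL-15 and none higher, compared with 0.943% and 0.497% of all genes.

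Effector genes gave a mixed picture. S100a4 and S100a6, calcium-binding proteins that mark effector and memory cells, were the 2 called genes among 26 effector and memory surface, S100, annexin and galectin genes. S100a4 had 2.32, 1.33 and 1.85, with a mean of 1.83 ± 0.19, or 3.56-fold (limma adjusted p = 0.0206). S100a6 had 1.86, 1.08 and 1.19, with a mean of 1.38 ± 0.18 (limma adjusted p = 0.0395). With IL-2, S100a4 had 2.64, 2.57 and 2.55, above every IL-15 array, and with IL-21 it had 1.93, 1.80 and 1.34, which overlapped them. The difference from IL-2 was -0.75 (95% interval -1.36 to -0.15) and that from IL-21 0.15 (-0.46 to 0.75). Both intervals are unadjusted, and neither difference was called. The list's median was 0.30, and Lgals1, a galectin, and Anxa2, an annexin, were called with the replicate block (limma adjusted p = 0.048 and 0.0277) but not with the random effect (0.129 and 0.195). Quantile normalization ended the calls of S100a4 and S100a6 (limma adjusted p = 0.426 and 0.616).

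Of 25 cytotoxic effector genes none was called, and the median was 0.16. At an unadjusted p under 0.05, 5 were higher, compared with 5.1% of all genes. Gzmb, which encodes granzyme B, had 2.24, 2.66 and 0.81, with a mean of 1.90 ± 0.44 (limma adjusted p = 0.19, 0.0301 with the replicate block and 0.142 with the random effect). Gzma, which encodes granzyme A, had 2.45, 0.63 and 1.71, with a mean of 1.59 ± 0.48 (limma adjusted p = 0.363, 0.0478 with the replicate block and 0.285 with the random effect). Both were above 0 in every array, with a low array in replicate 3 for Gzmb and in replicate 2 for Gzma. Prf1, which encodes the pore-forming perforin, had 0.27, 0.16 and 0.49 with IL-15 and 0.73, 2.12 and 1.30 with IL-2. Its difference of -1.08 (95% interval -1.80 to -0.36, unadjusted) was not called.

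Among 26 cytokine and chemokine genes known from activated CD8+ T cells none was called, 6 were past 0.58 in all 3 arrays, where 0.812% of all genes were, and 5 were called with the replicate block, where 0.623% were. With the random effect 1 was called. Csf2, which encodes GM-CSF, had 1.75, 3.08 and 3.06, with a mean of 2.63 ± 0.54 (limma adjusted p = 0.137, 0.019 with the replicate block and 0.0827 with the random effect). Ccl1, a chemokine for CCR8, had 1.85, 1.87 and 1.41, with a mean of 1.71 ± 0.25 (limma adjusted p = 0.0588, 0.0206 with the replicate block and 0.0477 with the random effect). Tnf had 0.64, 1.11 and 1.00, with a mean of 0.92 ± 0.14 (limma adjusted p = 0.0689, 0.0255 with the replicate block and 0.0652 with the random effect). The other 2, Il3 and Ccl9, had means of 1.65 ± 0.33 and 0.79 ± 0.13 and did not pass with the random effect (limma adjusted p = 0.0842 and 0.0881). With IL-2, Tnf had 0.27, 0.44 and 0.06, below every IL-15 array. The difference of IL-15 minus IL-2, 0.66 (95% interval 0.20 to 1.12, unadjusted), was not called.

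The genes of the IL-15 receptor and its first signalling steps lay near 0. None of 18 was called, none had an unadjusted p under 0.05, and the median was -0.05. Il15ra had 0.11, 0.00 and 0.03, Il2rb had 0.72, 0.20 and -0.02, and Il2ra had 0.58, 0.04 and 0.31. Among 20 STAT5 targets and feedback inhibitors the median was 0.26 and none was called. Above 0 in all 3 arrays were 11, compared with 15.1% of all genes. Cdkn1a, the cell cycle inhibitor p21, came closest, with 1.37, 1.07 and 1.14 and a mean of 1.19 ± 0.17 (limma adjusted p = 0.0519, 0.0315 with the replicate block and 0.0682 with the random effect). Osm, or oncostatin M, was the other STAT5 gene called with the block, at 0.91 ± 0.17 (limma adjusted p = 0.108, 0.0443 with the replicate block and 0.115 with the random effect). Cish, a feedback inhibitor of STAT5, had 0.44, 0.68 and 0.44, with a mean of 0.52 ± 0.13 (limma adjusted p = 0.249).

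Survival and metabolic lists, often linked to memory cells, held few called genes. None of 15 BCL2 family genes was called or had an unadjusted p under 0.05, and Bcl2 itself had 0.24, 0.24 and 0.05. Of 22 fatty acid oxidation genes none was called, and Cpt1a, which brings fatty acids into mitochondria, had -0.25, 0.01 and 0.04. Of 17 glycolysis genes none was called, and Aldoa, an aldolase, passed with the replicate block (1.07 ± 0.16, limma adjusted p = 0.0593, 0.0305 with the replicate block and 0.0707 with the random effect). Mlkl was the called gene among 15 genes of necroptosis, death receptors and pyroptosis, with 1.25, 1.96 and 1.51 and a mean of 1.57 ± 0.18 (limma adjusted p = 0.027), and the median of that list was 0.10.

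Naive and memory T cell genes had the lowest median of the lists, -0.38 over 21 genes. The median was below 0 in each array, at -0.50, -0.41 and -0.25, and 13 of the 21 were below 0 in all 3, compared with 12.6% of all genes, but none was called. With the sign of replicates 2 and 3 turned the median was -0.01 and no longer the lowest. S1pr1, the receptor that guides T cells out of lymphoid tissue, had -1.56, -0.90 and -0.22. Klf2, the factor that maintains it, had -1.48, -0.50 and -0.40. Ccr7, the lymph node homing receptor, had -0.50, -0.48 and -0.41 with IL-15 and a mean of 0.06 with IL-2. Its difference of -0.53 (95% interval -0.97 to -0.08, unadjusted) was not called. Il7r, the IL-7 receptor, had -0.77, -0.17 and 0.08. Eomes and Tbx21, factors of memory and effector CD8+ T cells, had 0.50, 0.48 and 0.08 and 0.82, 0.24 and 0.16.

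**Figure D5:**
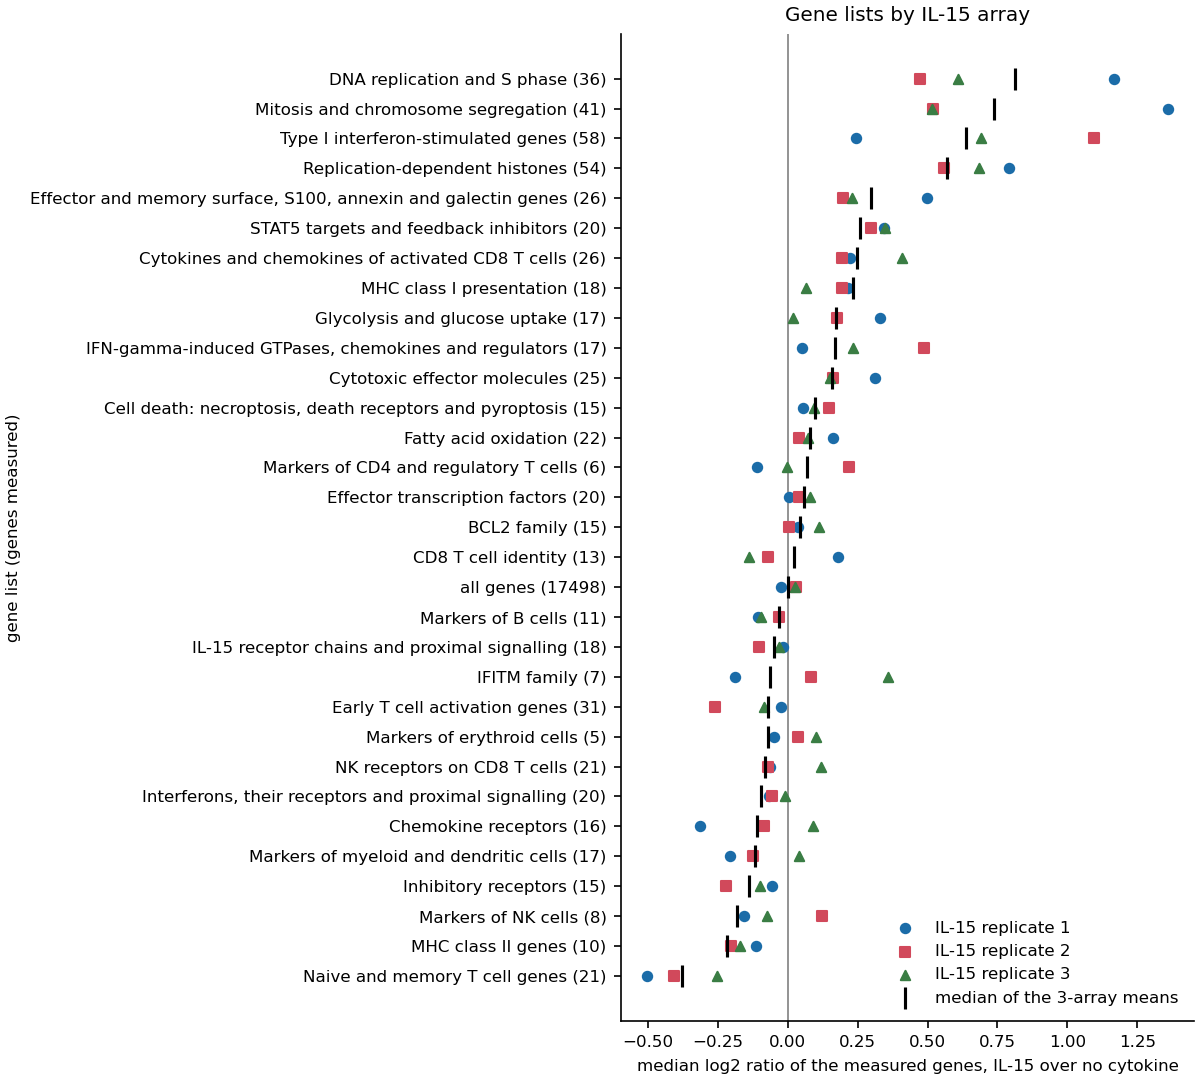
Median log2 ratio of IL-15 over no cytokine (x axis) of each gene list (rows, with the number of genes measured), per array as symbols and over the 3-array means as a black bar. Replicate 1 lies far right for the S phase and mitosis lists, at 1.17 and 1.36, and far left of the others for the interferon-stimulated list, at 0.24.

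In the lower direction no gene passed. The 10 genes with the smallest p and a ratio below 0 in all 3 arrays were Jchain, Suox, Pcmtd2, Ptpn22, Bmyc, Cblb, Tcp11l2, Ssxb1, Bmi1 and Orai2, with means from -1.16 to -0.51. Suox, the sulfite oxidase, had -0.70, -0.70 and -0.71 (limma adjusted p = 0.111). Ptpn22, a phosphatase that restrains T cell receptor signalling, had -0.61, -0.63 and -0.72 (limma adjusted p = 0.122). Cblb, a ubiquitin ligase that also restrains it, had -0.63, -0.64 and -0.99 (limma adjusted p = 0.139, 0.0443 with the replicate block and 0.13 with the random effect). Suox and Ptpn22 were below 0 by nearly the same amount in each array. The 10 genes were picked on a small p and one sign in all 3 arrays, so this closeness adds nothing to the test.

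Markers of other cells were measured as ratios only. Of 13 T cell identity genes none was called, and the median was 0.02. Cd8a had 0.38, 0.29 and -0.01, so the labelled cell type could not be checked by level. No gene was called among 6 markers of CD4+ and regulatory T cells (median 0.07), 11 of B cells (-0.03), 17 of myeloid and dendritic cells (-0.12), 8 of NK cells (-0.18) and 5 of erythroid cells (-0.07). In those lists the lowest mean ratios were -0.48 for Ctsh and -0.47 for Klra8, and the highest 1.59 for Gzma, which CD8+ T cells also express. Among 10 MHC class II genes the median was -0.22, and H2-Aa had -0.60, -1.36 and -1.21 (limma adjusted p = 0.264, 0.0275 with the replicate block and 0.178 with the random effect). The part of other cells in the results above was not tested.

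The remaining lists had no called gene. Their medians were 0.06 over 20 effector transcription factors, -0.08 over 21 NK receptors, -0.11 over 16 chemokine receptors, -0.07 over 31 early activation genes and -0.14 over 15 inhibitory receptors. Batf, a factor of effector differentiation, had 1.01, 0.55 and 1.13, with a mean of 0.89 ± 0.24 (limma adjusted p = 0.292). Klrk1, the activating receptor NKG2D, had 1.14, 0.35 and 0.54, with a mean of 0.68 ± 0.19 (limma adjusted p = 0.332). Havcr2, or TIM-3, had 0.87, 0.63 and 0.80, and Vsir, or VISTA, had -0.80, -1.15 and -0.78, and neither was called.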

How the data were processed

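Per the labels' protocols, total RNA was extracted with Trizol and RNeasy columns, amplified and labelled by amino allyl coupling. The table deposited by the authors holds a log2 ratio per probe and array for 36547 probes, from -8.01 to 8.78. The log base is read from this range, and a natural log is not excluded. How the arrays were scanned, corrected and normalized is not given in the sources used here. No intensities were used, so depth has no counterpart and the 3 arrays limit the precision.

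The labels put the cytokine in Cy5 on every array, whereas the series text and a deposited list exchange the dyes in replicates 2 and 3. Over all probes, IL-15 replicate 1 correlated at -0.33 with IL-21 replicate 3, of the opposite dye. The difference of IL-15 and IL-21 within a replicate, where a dye effect cancels, gave positive correlations of replicates (0.12, 0.14 and 0.17), while the same check for IL-15 and IL-2 gave 0.04, -0.04 and -0.02. The check for IL-21 and IL-2 gave 0.20, 0.15 and 0.11. Such correlations can show only whether replicates share a sign, and not which sign that is. Replicates 2 and 3 would turn together, so their values, 0.17 and 0.11 among them, do not bear on the dyes. For replicate 1 against replicates 2 and 3 the values were small and positive in both differences that involve IL-21. They were 0.12 and 0.14 for IL-15 and IL-21, and 0.20 and 0.15 for IL-21 and IL-2. For IL-15 and IL-2 they were near 0 (0.04 and -0.04). A common direction, with the cytokine as numerator, was thus an assumption that this check does not settle.

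Gene names came from the platform annotation and were brought up to date through the Entrez ID for 26774 probes. A single symbol was listed for 26926 probes, several for 203 and none for 9418, and 41 control probes were dropped. A gene's value was the mean of its probes, and limma 3.58.1 in R 4.3.3 fitted 1 coefficient per cytokine over 9 arrays, two-sided. The fit was first run on simulated arrays with planted changes. These had no replicate or dye structure, so that run does not bear on the calls in these data. No covariate was used. The replicate block was an alternative. Deviations from the group means correlated at 0.15 to 0.63 between arrays of one replicate number. Between arrays that differed in both replicate number and cytokine they correlated at -0.55 to 0.24. These ranges overlapped, and replicate 1 also differed in dye per the series text, so whether the numbers pair the samples is not settled. If they do, the main fit leaves that pairing out, also in the differences between cytokines. Against no cytokine, the block leaves out of the error what the arrays of a replicate share, and the replicate number as a random effect (duplicateCorrelation) was a further alternative.

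The text names every called gene, the leading members of 30 lists, the leading differences and a fixed set, and says so where a gene was named after its values were seen. The gene lists and tests were chosen with earlier results of these data known. Of 686 listed entries, 629 were measured. Promoters are RefSeq's, on GRCm38.p6.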

Additional observations from a re-analysis of the deposited data

Results flagged for a closer look

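The change with IL-15 differed from that with IL-21 by a test of the difference in 3 genes. The difference in the log2 ratio, IL-15 minus IL-21, was 2.71 for H2ac12, 2.65 for H2ac15 and 1.73 for Lta. Each had a limma adjusted p of 0.0399. The genes were picked on this difference, so the lack of overlap between the arrays of the 2 cytokines adds nothing to the test. Quantile normalization ended all 3 calls (limma adjusted p = 0.414, 0.424 and 0.279). Groups of 3 arrays were not tested for single outlying arrays.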

How the results depend on the processing

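The choice that mattered most was the direction of replicates 2 and 3. With their sign turned, limma called 0 genes in every comparison (257 higher and 721 lower with IL-15 at an unadjusted p under 0.05), and the 22 called genes had means of -0.46 for Bst2, -0.47 for Cenpi, -0.49 for H2ac12, -0.32 for H2ac15, -0.39 for H2ac24, -0.23 for H2az1, -0.35 for H2bc22, -0.31 for H2bc7, -0.14 for H3c2, -0.26 for H4c3, -0.63 for Ifitm3, -1.19 for Isg15, -0.78 for Isg20, -0.26 for Mitd1, -0.74 for Mlkl, -0.85 for Phf11a, -0.48 for Plac8, -0.29 for S100a4, -0.14 for S100a6, -0.29 for Scn9a, -0.26 for Selenoh and -1.36 for Usp18. The differences from IL-21 were then -0.63 for H2ac12, -0.65 for H2ac15 and -0.39 for Lta. For genes higher and lower with IL-15 than with no cytokine, the replicate block gave 109 and 13, the replicate number as a random effect 29 and 0, a dye term 147 and 23, and the IL-15 arrays alone 0 and 0, where the smallest adjusted p was 0.358. Quantile normalization gave 27 higher genes, 10 of the 22 among them. For genes higher and lower with IL-15 than with IL-21, quantile normalization gave 1 and 0 (Mt1, and none of H2ac12, H2ac15 and Lta), median centring 4 and 1, the median over probes 3 and 1, the replicate block 28 and 4, the replicate number as a random effect 108 and 19, and a dye term 33 and 6. Leaving out a replicate number gave 0 genes higher with IL-15 each time (995, 466 and 801 at an unadjusted p under 0.05 without replicates 1, 2 and 3), and leaving out only an IL-15 array gave 6, 2 and 0. Between IL-15 and IL-21 these gave 0. Differences between IL-15 and IL-2 stayed at 0 in each setting run. The means of the 22 called genes kept their direction in all settings but the turned sign. The cause of these shifts was not tested. The absence of intensities leaves dim probes in the tests.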

Other observations

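Of the 142 genes past 0.58 in all 3 IL-15 arrays, 73 were in a list, 40 of them in the S phase, mitosis and histone lists and 13 in the interferon-stimulated list, and 69 were in none. The genes below were named after their values were seen, and none passed the limma test as reported. The metallothioneins Mt1 and Mt2, which bind zinc and copper, had ratios of 1.37, 1.65 and 1.41 and of 1.64, 1.65 and 1.19. Their means were 1.47 ± 0.22 and 1.49 ± 0.25 (limma adjusted p = 0.063 and 0.0754, 0.0206 and 0.0443 with the replicate block, and 0.0477 and 0.102 with the random effect). With IL-21 the means were -0.78 and -1.06. The difference of IL-15 minus IL-21 was 2.26 (95% interval 1.53 to 2.98) for Mt1 and 2.56 (1.75 to 3.36) for Mt2 (limma adjusted p = 0.111 and 0.108). After quantile normalization Mt1 was the one gene called between IL-15 and IL-21 (limma adjusted p = 0.0356). Cebpb, a leucine zipper transcription factor, had 1.33, 1.58 and 1.65 (limma adjusted p = 0.0738, 0.0206 with the block and 0.0652 with the random effect).

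Of the 17 genes below -0.58 in all 3 arrays, 3 were in a list. Stk38, a serine/threonine kinase, had -0.93, -2.26 and -0.92, and Trp53inp1, a p53-induced gene, had -0.85, -1.38 and -0.98. Neither passed the test (limma adjusted p = 0.19 and 0.36).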
